A study of Mesocricetus auratus and Mus musculus with 214 samples.

Results

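Acrosome and sperm-egg fusion genes were followed through male germ cell development and in Piwi knockout testes of the golden hamster. The 10 genes listed were Acr, Acrbp, Izumo1, Spaca1, Spaca6, Zpbp, Zpbp2, Spesp1, Tmem95 and Adam2. They were named by symbol, with earlier results of these data known. Of the 36133 NCBI gene IDs in the tables, 7 carried a listed symbol in the golden hamster annotation: Acr (101839533), Izumo1 (101824302), Spaca1 (101838158), Spaca6 (101823516), Zpbp2 (101843951), Spesp1 (101823911) and Tmem95 (101828783). Acrbp, Zpbp and Adam2 were not analysed here.

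The acrosome is a vesicle derived from the Golgi apparatus that caps the sperm nucleus and releases its enzymes near the egg. Some of its proteins are made from the spermatocyte stage on, and it takes its shape in spermatids. After its release, proteins of the equatorial segment and of the newly exposed sperm membrane bind the egg and fuse with it. PIWI proteins bind small RNAs called piRNAs, and in mice the loss of Piwil1 (Miwi) stops germ cells at the round spermatid stage. In golden hamsters the study reported an earlier arrest in Piwil1-/- males, at pachytene or diplotene, with few or no round spermatids. In Piwil2-/- and Piwil4-/- adult testes it reported the loss of most germ cells.

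All libraries were bulk RNA-seq from male golden hamsters, and 60 libraries in 3 tables of the 214 samples of the series were used. The first table held wild-type (WT) adult cells sorted by FACS (fluorescence-activated cell sorting), with 2 libraries each of spermatogonia, pre-leptotene, leptotene, zygotene and pachytene spermatocytes, round sperm (round spermatids) and mature sperm. The second held whole testes, with 2 libraries each of adult WT, Piwil1-/-, Piwil2-/-, Piwil3-/- and Piwil4-/- animals and of WT, Piwil2-/- and Piwil4-/- animals at 3 d.p.p. (days after birth). The third held sorted adult WT and Piwil1-/- cells of 4 fractions labelled SPG/PL (spermatogonia and pre-leptotene), LZ (leptotene and zygotene), P (pachytene) and D (diplotene). Each sorted group had 4 libraries numbered 1A, 1B, 2A and 2B, except that Piwil1-/- SPG/PL lacked 2A and Piwil1-/- LZ lacked 1A. The knockout lines were made by injecting CRISPR-Cas9 into 2-cell embryos and carried constitutive frameshift mutations, so germ cells and supporting cells shared each genotype. The labels do not say which libraries came from separate animals, so the p-values measure only the spread between these libraries, which may be technical.

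The stage series was deposited as FPKM (fragments per kilobase, scaled to the total of each library). The testis and sorted tables were deposited as fragments per kilobase relative to reads of the ERCC spike-in RNA, here called the normalised level, whose scale is arbitrary. Summed values per library ran from 564810 to 684854 FPKM in the stage series, from 42524 to 167457 in the testes and from 69606 to 621053 in the sorted cells. The targeted Piwi gene was lower in every knockout than in its control: Piwil1 was 14.3 to 21.6 in Piwil1-/- testes against 35.6 to 37.3 in WT, and Piwil2 was 0.490 to 0.601 in Piwil2-/- testes against 11.5 to 13.2. Spermatid transcripts were present in the early fractions of the stage series, where Tnp1 ran from 35.4 to 363 FPKM between spermatogonia and pachytene against 1809 to 2464 in round sperm. The WT LZ libraries 1A and 1B stood apart from 2A and 2B, with Piwil1 at 28.3 and 77.7 against 1.41 and 2.53.

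In WT germ cells the 7 genes reached their highest mean in round sperm, but they differed in how much RNA was already there in pachytene spermatocytes. The acrosomal genes were ordered as follows. Zpbp2, a zona-binding protein of the acrosomal matrix, was the earliest: it was 37.2 and 33.5 FPKM in spermatogonia, 74.3 and 67.8 in pre-leptotene, 118 and 112 in leptotene and 124 and 131 in zygotene cells. It then reached 412 and 371 FPKM in pachytene, 699 and 716 in round sperm and 41.2 and 37.7 in mature sperm. Zpbp2 was thus present at every stage, and the libraries of each stage from pre-leptotene to round sperm lay close together.

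Acr encodes acrosin, the serine protease of the acrosome. It lay between 2.69 and 12.04 FPKM up to zygotene, was 38.2 and 34.4 in pachytene, and was 512 and 453 in round sperm. Spesp1, a protein of the equatorial segment, was 32.1 and 25.5 FPKM in zygotene, 69.1 and 61.2 in pachytene and 297 and 282 in round sperm, against 2.21 to 9.74 before. Spaca1, an acrosomal membrane protein needed for acrosome shaping in mice, was 13.6 and 5.59 FPKM in pachytene and 549 and 389 in round sperm. Acr and Spesp1 had a clear pachytene level, whereas the Spaca1 pachytene libraries lay within the range of its earlier stages, 1.35 to 11.2, or just above it. The highest early Acr and Spaca1 values, 12.04 and 11.2 FPKM, were in pre-leptotene library 2, which also held the most Tnp1 of the early libraries, 363 FPKM. The part of spermatid RNA in these early values was not tested.

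The 3 genes of sperm-egg fusion were later or lower. Izumo1, the sperm protein that binds the egg receptor Juno, was 2.62 and 1.31 FPKM in pachytene and 213 and 157 in round sperm. Tmem95, a sperm membrane protein required for fusion in mice, was between 0 and 0.903 FPKM in all libraries up to pachytene and was 15.96 and 11.5 in round sperm. Spaca6, also required for fusion in mice, was 8.11 and 11.0 FPKM in pachytene and 52.2 and 62.2 in round sperm, against 1.19 to 3.75 earlier. Izumo1 and Tmem95 thus had no pachytene level above their earlier values, while Spaca6 did.

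In round sperm the mean level was 708 ± 11.7 FPKM for Zpbp2, 483 ± 41.6 for Acr, 469 ± 113 for Spaca1, 289.6 ± 10.8 for Spesp1, 185 ± 39.6 for Izumo1, 57.2 ± 7.09 for Spaca6 and 13.8 ± 3.12 for Tmem95 (SD, n = 2 each). The libraries of Acr and Spaca1 overlapped, and those of all other neighbours in this order did not. In pachytene the mean was 392 ± 28.9 FPKM for Zpbp2, 65.2 ± 5.58 for Spesp1, 36.3 ± 2.69 for Acr, 9.58 ± 5.63 for Spaca1, 9.55 ± 2.03 for Spaca6, 1.97 ± 0.922 for Izumo1 and 0.0828 for Tmem95. There the libraries of Spaca1 and Spaca6 overlapped.

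**Figure D1:**
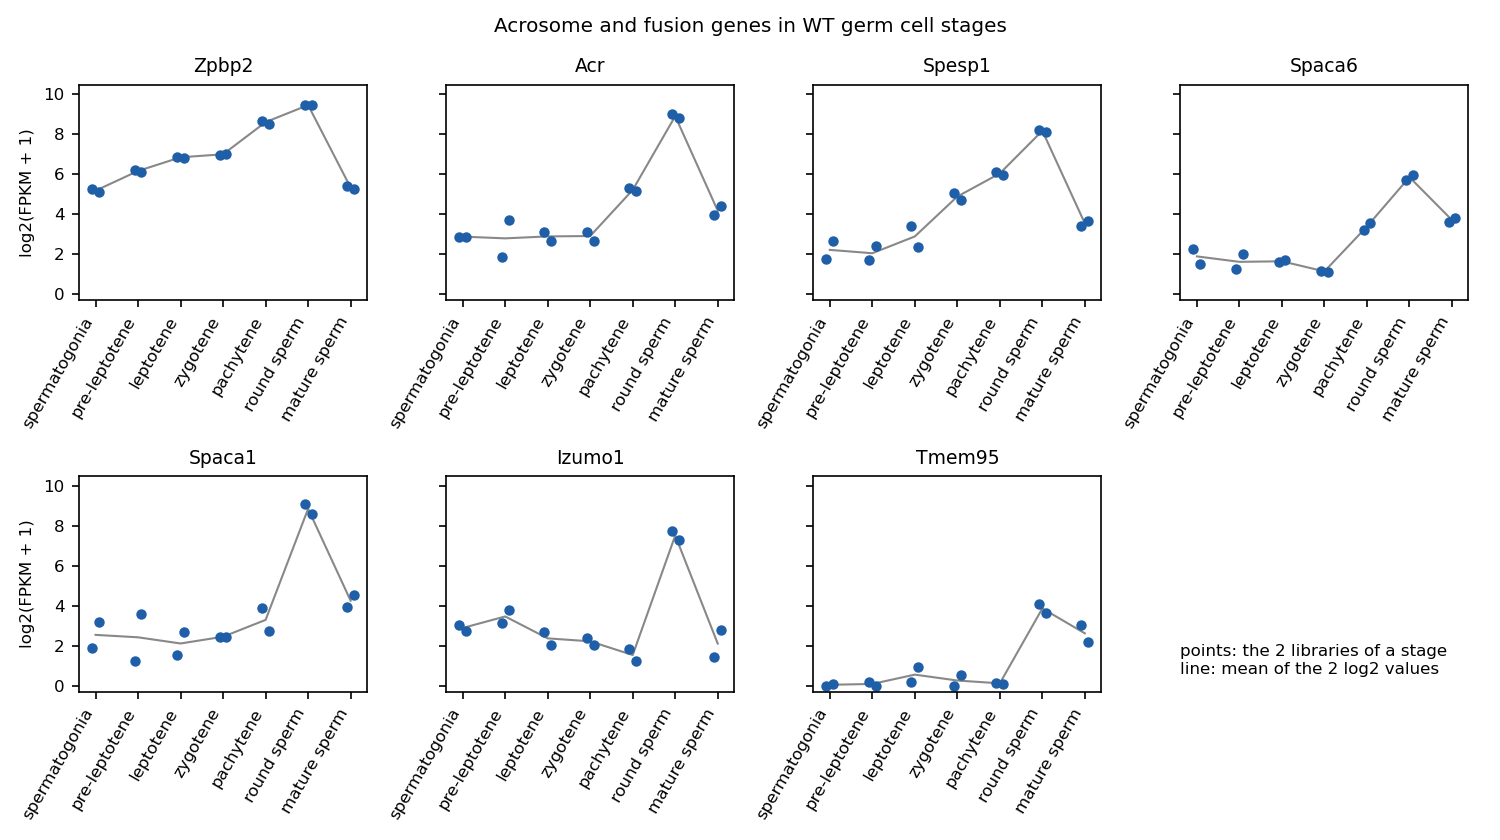
Level of the 7 genes in WT sorted cells from spermatogonia to mature sperm, as log2(FPKM + 1); points are the 2 libraries of a stage and lines join the means of the log2 values. Zpbp2 is high from spermatogonia on, Spesp1 rises from zygotene, Acr and Spaca6 from pachytene, and Spaca1, Izumo1 and Tmem95 only in round sperm.

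Steps between neighbouring stages were tested with limma on log2(FPKM + 1), with p-values adjusted by Benjamini and Hochberg over all genes tested. A gene was tested where it was above 2 in at least 40% of the libraries compared. A member that met this only where it was high had to differ, so the counts of members called, here and below, are a description. Before pachytene few members passed, each time 1 of 6 tested. Zpbp2 rose from spermatogonia to pre-leptotene (log2 difference 0.99, SE 0.13, limma adjusted p = 0.00531; 1.57% of all genes tested were higher) and again into leptotene (0.68, SE 0.13, adjusted p = 0.0187; 4.66% higher). The first Zpbp2 call was lost without spermatogonia library 2 (adjusted p = 0.0588), and the second without leptotene library 1 (0.161), leptotene library 2 (0.0724) or pre-leptotene library 2 (0.0895). Spesp1 rose from leptotene to zygotene (2.00, SE 0.39, limma adjusted p = 0.00362; 7.31% of genes higher). With libraries scaled by median ratios, the second Zpbp2 call was lost (adjusted p = 0.137), and the split over all genes moved from 181 higher and 530 lower to 281 and 237 into pre-leptotene, from 547 and 70 to 186 and 176 into leptotene and from 857 and 2281 to 1459 and 1505 into zygotene.

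From zygotene to pachytene 4 of 6 members tested rose, where 24.2% of all genes did. They were Acr (log2 difference 2.31, SE 0.45, limma adjusted p = 0.00124), Spaca6 (2.25, SE 0.31, adjusted p = 0.000123), Zpbp2 (1.61, SE 0.13, adjusted p = 3.07e-06) and Spesp1 (1.16, SE 0.39, adjusted p = 0.0235). Izumo1 had a log2 difference of −0.69 (adjusted p = 0.204) and Spaca1 one of 0.84 (adjusted p = 0.332), and Tmem95 was too low to be tested. The Spesp1 call rested on all 4 libraries: without any 1 of them its adjusted p lay between 0.0503 and 0.124.

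From pachytene to round sperm 7 of 7 members rose, where 40.8% of all genes did and the median of all genes was −0.06. Izumo1 rose by 5.99 on the log2(FPKM + 1) scale (SE 0.45, limma adjusted p = 4.58e-07) and Spaca1 by 5.56 (SE 0.71, adjusted p = 2.36e-05). Tmem95 rose by 3.75 (SE 0.35, adjusted p = 2.26e-06) and Acr by 3.70 (SE 0.45, adjusted p = 1.75e-05). The rises were smaller on this scale for Spaca6, by 2.47 (SE 0.32), Spesp1, by 2.14 (SE 0.39), and Zpbp2, by 0.85 (SE 0.13, adjusted p = 8.72e-05). The added 1 shrinks the rise of low genes: as a plain ratio of means, round sperm held 166-fold more Tmem95 than pachytene cells, 94.0-fold more Izumo1, 49.0-fold more Spaca1 and 1.81-fold more Zpbp2. With median ratios all 7 still rose, although the median of all genes was then 0.76 and the split moved from 4896 higher and 4959 lower to 6497 and 3820.

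In mature sperm 7 of 7 members were lower than in round sperm, where 31.8% of all genes were lower and the median of all genes was 0.48. Izumo1 fell from 185 to 3.80 FPKM (log2 difference −5.42, SE 0.45, limma adjusted p = 1.41e-06), and the log2 difference was −4.74 for Acr, −4.64 for Spesp1, −4.60 for Spaca1, −4.13 for Zpbp2 and −2.15 for Spaca6. Tmem95 fell least, from 13.8 to 5.41 FPKM (−1.25, SE 0.35, adjusted p = 0.00653), and its call was lost without mature sperm library 2 (adjusted p = 0.0582) or round sperm library 1 (0.0516). Transcripts of other cells stood beside this fall. All 5 macrophage markers tested were higher in mature sperm, with summed levels of 873 to 1346 FPKM against 3.22 to 4.73 in round sperm, and so were 2 of 2 endothelial, 3 of 4 peritubular myoid and 3 of 3 Sertoli markers, where 46.5% of all genes were higher. Their part in the lower FPKM shares of the members was not tested.

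Genes of the same processes were taken from 3 lists: other acrosome genes (20 of 23 listed matched), other fusion genes (9 of 10) and sperm ADAM genes with zona-binding chaperones (7 of 13). The list names are labels, and the role of each gene was not tested here. From pachytene to round sperm 16 of 20 other acrosome genes rose and 1 fell (median 4.14), 9 of 9 other fusion genes rose (median 5.74), and of 6 ADAM and chaperone genes tested 4 rose and 1 fell (median 3.15). Over all genes tested 40.8% rose at this step. The counts and medians of the lists too are taken only over genes above the filter. Among them Lyzl4, a lysozyme-like acrosomal protein, rose by 6.10 on the log2 scale. Dcst1 and Dcst2, sperm membrane proteins required for fertilisation in mice, rose by 6.62 and 5.20, and Calr3, a chaperone of sperm surface proteins, by 4.12. Tpst2, a Golgi enzyme that sulphates tyrosines, fell by 1.40.

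The testis table asked how these RNAs differed between the Piwi genotypes. In Piwil1-/- testes the 7 genes split into 3 that were nearly absent and 4 that kept much of their level. In bulk tissue, fewer cells of a type and less RNA per cell cannot be told apart, here and in all testis results.

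Of the acrosomal genes, Zpbp2 had normalised levels of 145 and 131 in WT testes and 66.1 and 133 in Piwil1-/- testes, so the groups overlapped. Spesp1 was 49.3 and 45.4 in WT and 17.2 and 37.9 in Piwil1-/- testes, and Acr was 67.7 and 61.8 against 17.1 and 34.4. Spaca1 was 68.2 and 79.6 in WT and 0.561 and 0.534 in Piwil1-/- testes. For Acr, Spesp1 and Spaca1 both knockout libraries lay below both WT libraries. The share of all genes that separated in this way was not computed, so this is a description of 2 libraries a group. Spaca1 was in effect missing: the Piwil1-/- values stood for 13 and 7 fragments against 820 and 802 in WT.

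Of the fusion genes, Izumo1 was 21.7 and 34.8 in WT and 0.225 and 0.199 in Piwil1-/- testes, which stood for 300 and 403 fragments against 6 and 3. Tmem95 was 1.13 and 1.23 in WT, from 37 and 34 fragments, and 0 in both Piwil1-/- libraries. With a floor of 3 fragments over the group, Tmem95 was at least 36-fold higher in WT. Spaca6 behaved otherwise, with 15.7 and 15.9 in WT and 4.15 and 11.1 in Piwil1-/- testes. So 2 of the 3 fusion genes were near 0, and Spaca6 was not.

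**Figure D2:**
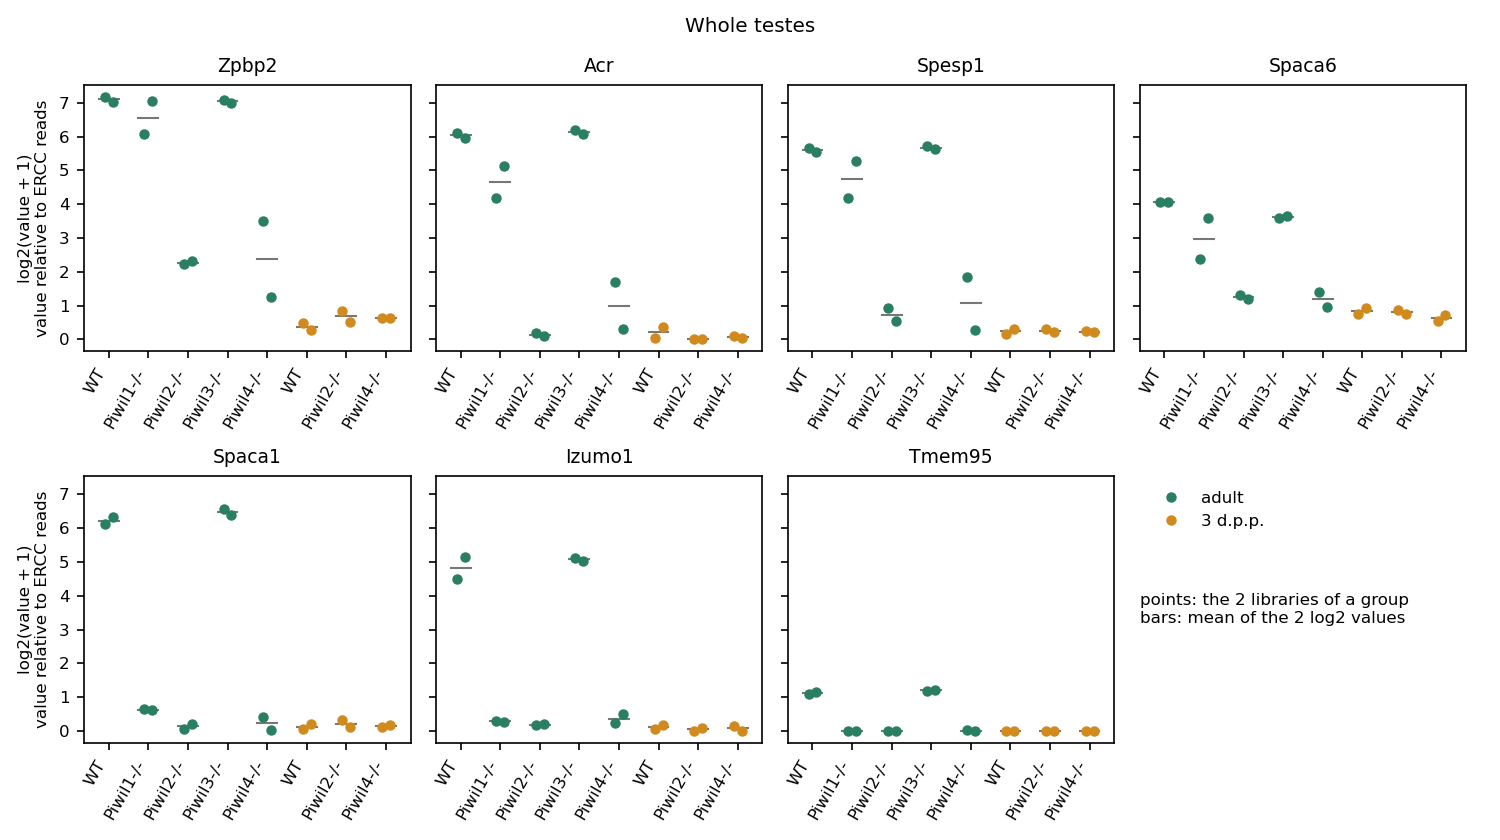
Normalised level of the 7 genes in each testis library, by genotype and age, as log2(value + 1); points are libraries, 2 a group. In Piwil1-/- adult testes Spaca1, Izumo1 and Tmem95 lie at the bottom of the axis while Zpbp2, Spesp1, Acr and Spaca6 stay between the WT level and that of Piwil2-/- and Piwil4-/- testes.

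As a share of the WT mean, the Piwil1-/- mean was 72.2% for Zpbp2, 58.3% for Spesp1, 48.3% for Spaca6, 39.8% for Acr, 0.751% for Izumo1, 0.741% for Spaca1 and 0% for Tmem95. By limma on log2(value + 1), 4 of 6 members tested fell, where 28.7% of the 8289 genes tested fell. Spaca1 and Izumo1 were above the filter only in WT. Spaca1 fell by 5.59 (SE 0.18, limma adjusted p = 3.68e-12) and Izumo1 by 4.55 (SE 0.19, adjusted p = 4.56e-11). Acr fell by 1.38 (SE 0.37, adjusted p = 0.00843) and Spaca6 by 1.09 (SE 0.30, adjusted p = 0.0101). Spesp1 had a log2 difference of −0.86 (SE 0.41, adjusted p = 0.121) and Zpbp2 one of −0.55 (SE 0.51, adjusted p = 0.442). Tmem95 lay below the filter on low values and was not tested.

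The Spaca1 and Izumo1 calls did not depend on any 1 library, and those of Acr and Spaca6 did. Without Piwil1-/- library 1 the log2 difference was −0.89 for Acr (limma adjusted p = 0.107) and −0.47 for Spaca6 (0.121), and without WT library 1 or 2 their adjusted p lay between 0.0507 and 0.0671. Without Piwil1-/- library 2 Spesp1 passed (−1.40, adjusted p = 0.0213). The scale also mattered: with each library brought to the same total, the median of all genes moved from −0.13 to 0.33, the split of calls from 600 higher and 2376 lower to 2636 higher and 1476 lower, and Acr to −0.87 (adjusted p = 0.0536).

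The 4 retained genes varied together between the Piwil1-/- libraries, with library 1 below library 2 for each. Relative to the WT mean, library 1 held 48.0% of Zpbp2, 36.4% of Spesp1, 26.3% of Spaca6 and 26.4% of Acr, and library 2 held 96.5%, 80.1%, 70.4% and 53.1%. The summed level of 7 pachytene markers differed in the same way, 358 in library 1 and 677 in library 2, against 720 and 621 in WT. By the test 2 of the 7 were lower, which is near the 28.7% of all genes that were lower. Per 100 units of that sum Zpbp2 was 18.4 and 19.6 in Piwil1-/- against 20.1 and 21.04 in WT testes, and Acr was 4.77 and 5.08 against 9.41 and 9.95. On this basis both genes were lower in both knockout libraries, Zpbp2 slightly and Acr by more. Of 8 spermatid markers, 8 were lower, with sums of 0.969 and 1.36 in Piwil1-/- against 979 and 1937 in WT testes, and Tnp1 and Prm2 were at 0. Sertoli markers summed to 332 and 336 in Piwil1-/- against 212 and 162 in WT, with 3 of 7 higher by the test, where 7.24% of all genes were. The part of cell makeup in the members' levels was not tested.

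The retained share followed the pachytene level in the stage series. Expressed as a percentage of the round sperm mean, the pachytene mean was 55.4% for Zpbp2, 22.5% for Spesp1, 16.7% for Spaca6, 7.52% for Acr, 2.04% for Spaca1, 1.06% for Izumo1 and 0.602% for Tmem95. The retained share in Piwil1-/- testes had the same order except that Spaca1 and Izumo1, at 0.741% and 0.751%, changed places. Spearman's rho over the 7 genes was 0.96, given as a description, since the genes share the same libraries.

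A limit of 5% on the pachytene share, set after the values were seen, separated the members into the 3 that were nearly absent and the 4 that were kept. The other listed genes, kept where above 2 in round sperm and in WT testis, are set beside them as a description, since these levels are the denominators of both shares. Of the 18 under that limit, 17 kept under 5% of the WT level, and the exception was Crisp2, a cysteine-rich acrosomal protein, at 17.8%. Of the 14 at or above it, 12 kept 25% or more, and the exceptions were Spaca9 (pachytene share 6.71%, kept 1.40%) and Calr3 (5.32%, kept 2.23%). The highest was Gopc, a Golgi protein needed for acrosome assembly in mice, at 143% of WT.

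**Figure D3:**
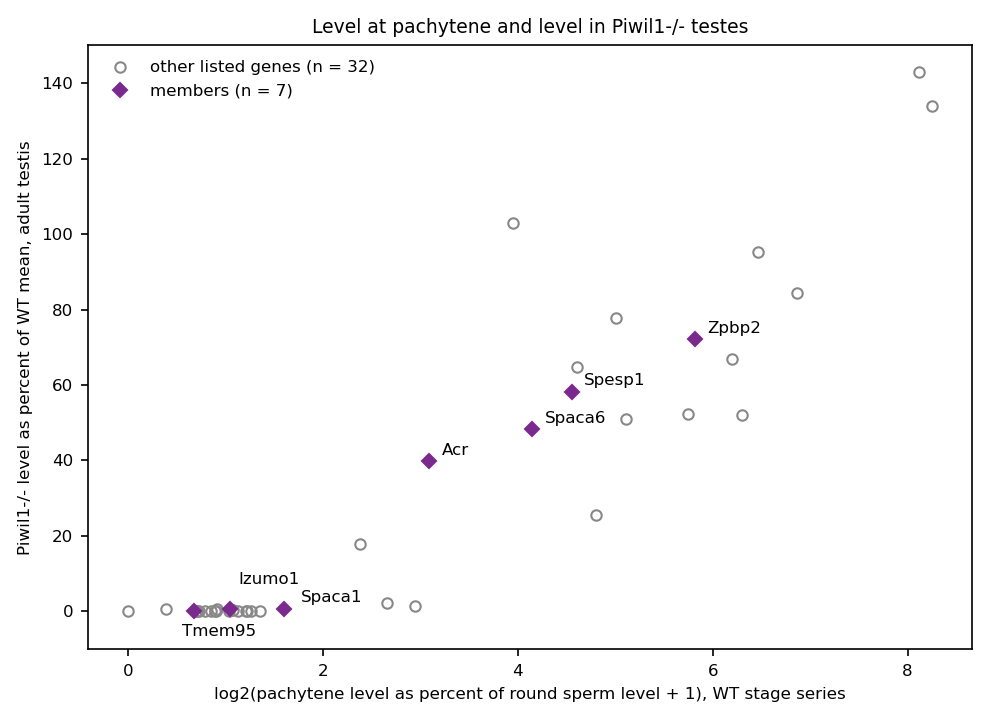
Pachytene mean as a percentage of the round sperm mean in WT sorted cells (x axis) against the Piwil1-/- mean as a percentage of the WT mean in adult testes (y axis); each point is a gene, with the 7 members named and the other listed genes in grey. Spaca1, Izumo1 and Tmem95 lie at the lower left and Acr, Spaca6, Spesp1 and Zpbp2 at 39.8% to 72.2% of WT.

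The 3 lists were also read in Piwil1-/- testes. Of the other acrosome genes 13 of 18 tested fell (median −3.43), of the other fusion genes 6 of 8 (median −4.14) and of the ADAM and chaperone genes 3 of 6 (median −1.02), and 0 rose. Over all genes tested 28.7% fell and 7.24% rose. List genes near 0 in Piwil1-/- testes were above the filter only in WT and had to fall, so these counts and medians are a description. Listed at 0 in both Piwil1-/- libraries were the acrosomal Spaca3, Spaca7, Eqtn, Lyzl4 and Lyzl6 and the perinuclear theca proteins Actl9, Cylc1 and Cylc2. So were Llcfc1 and Spaca4 of the list of other fusion genes and, of the ADAM and chaperone genes, Pdilt and Prss37. The WT means of these genes ran from 2.34 for Pdilt to 92.4 for Spaca7. Actl7a was 0.0178 against 48.4 in WT, Izumo2 0.114 against 19.3, Dcst1 0.113 against 18.1 and Dcst2 0.0320 against 8.80. Crisp2 fell less, from 235 to 41.9 (−2.53, limma adjusted p = 7.69e-05). Several acrosome genes did not pass: Spink2, an acrosin inhibitor, was 124 against 185 in WT (adjusted p = 0.489), and Dpy19l2, an inner nuclear membrane protein that anchors the acrosome in mice, was 36.9 against 38.8. Izumo4 was 119 against 153 (adjusted p = 0.588), so the Izumo genes did not move as a block.

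In Piwil2-/- and Piwil4-/- adult testes all 6 members tested fell, Zpbp2 included. Zpbp2 was 3.67 and 3.94 in Piwil2-/- and 10.4 and 1.36 in Piwil4-/- testes. Acr was 0.129 and 0.0676 in Piwil2-/- and 2.24 and 0.237 in Piwil4-/- testes, and Spesp1 was 0.904 and 0.449 against 2.59 and 0.215. Spaca6 kept the most, 1.49 and 1.27 in Piwil2-/- and 1.66 and 0.950 in Piwil4-/- testes, or 8.72% and 8.28% of WT. Spaca1 and Izumo1 were at most 0.409 in all 4 libraries, and Tmem95 was 0 in 3 and 0.0103 in 1 of them. In Piwil4-/- testes library 1 was above library 2 for each gene but Izumo1, and so was the pachytene marker sum, 69.2 against 7.92.

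By limma, the log2 differences in Piwil2-/- testes were −6.09 for Spaca1, −5.90 for Acr, −4.86 for Spesp1, −4.85 for Zpbp2, −4.65 for Izumo1 and −2.82 for Spaca6, with adjusted p of at most 5.97e-07. There 64% of all genes tested were lower. In Piwil4-/- testes they were −5.997 for Spaca1, −5.04 for Acr, −4.74 for Zpbp2, −4.53 for Spesp1, −4.47 for Izumo1 and −2.88 for Spaca6, with limma adjusted p of at most 6.97e-07. There 63.2% of all genes were lower. All members tested fell in both knockouts also when each library was brought to the same total, although the split of calls over all genes then turned from 1732 higher and 5496 lower to 3782 and 3136 in Piwil2-/-, and from 1683 and 5397 to 3683 and 3073 in Piwil4-/-. Sertoli markers summed to 903 and 974 in Piwil2-/- and 876 and 1244 in Piwil4-/- testes, and spermatid markers to at most 1.75.

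Piwil1-/- testes held more of the retained genes than Piwil2-/- and Piwil4-/- testes. Of 4 members tested 4 were higher than in Piwil2-/- testes, where 55.4% of all genes were: Acr by 4.53, Zpbp2 by 4.30, Spesp1 by 4.0 and Spaca6 by 1.73 on the log2 scale (limma adjusted p at most 6.84e-05). Against Piwil4-/- testes 4 of 4 were higher too, where 54% of all genes were, with Zpbp2 at 4.19, Spesp1 at 3.67, Acr at 3.66 and Spaca6 at 1.79. These comparisons share the Piwil1-/- libraries. With equal totals the 4 were still higher in both, while the split over all genes turned from 3907 higher and 1549 lower to 2734 and 3088 against Piwil2-/-, and from 3789 and 1481 to 2672 and 2970 against Piwil4-/- testes. The 3 genes near 0 in all 3 genotypes were too low to be tested, with Tmem95 at 0 to 0.0103, Spaca1 at 0.561 and 0.534 in Piwil1-/- against 0.0235 to 0.337 in the other 2, and Izumo1 at 0.225 and 0.199 against 0.134 to 0.409.

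Piwil3-/- testes kept all 7 genes. Zpbp2 was 135 and 128, Acr 72.5 and 66.2, Spesp1 51.7 and 48.8, Spaca1 93.8 and 83.8, Izumo1 33.7 and 31.8, Spaca6 11.1 and 11.6 and Tmem95 1.28 and 1.31. Of the 7 members 3 did not overlap WT. Both Spaca6 libraries lay below both WT libraries, and those of Spaca1 and Tmem95 lay above them. The share of all genes that separated was not computed here either. By limma 0 of 6 members tested passed, where 6.31% of all genes did in either direction, and 0 had an unadjusted p under 0.05. The log2 differences from WT ran from −0.44 for Spaca6 (SE 0.30, adjusted p = 0.498) to 0.26 for Spaca1 (SE 0.18, adjusted p = 0.504). Izumo1 passed only without WT library 2 (0.57, adjusted p = 0.0217).

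At 3 d.p.p., when germ cells have not entered meiosis, none of the 7 genes was above 0.888 in any WT, Piwil2-/- or Piwil4-/- testis. Spaca6 was 0.697 and 0.888 in WT, 0.814 and 0.671 in Piwil2-/- and 0.466 and 0.635 in Piwil4-/- testes. Zpbp2 was 0.398 and 0.205 in WT, 0.786 and 0.440 in Piwil2-/- and 0.562 and 0.544 in Piwil4-/- testes. No member passed the filter in the knockout comparisons at that age, so none was tested. Adult WT testes had higher levels of all 6 members tested than WT testes at 3 d.p.p., where 67% of all genes were higher, but the members were above the filter only in adults, so that the direction was fixed. The log2 difference ran from 6.74 for Zpbp2 (SE 0.50, limma adjusted p = 1.46e-08) to 3.23 for Spaca6 (SE 0.30, adjusted p = 1.47e-07). With equal totals the split over all genes turned from 5716 higher and 1351 lower to 3118 and 4163.

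Sorted cells allowed the Piwil1-/- members to be read within a stage. In WT, Zpbp2 was the only member tested between SPG/PL and LZ and it rose, from 3.34 to 6.91 in SPG/PL to 17.7 to 49.9 in LZ (2.14, SE 0.23, limma adjusted p = 5.56e-09; 34.1% of genes were higher). From LZ to P 4 of 5 members rose, where 81.8% of all genes did. The median of all genes was 1.43. Acr rose by 4.85 (SE 0.23, limma adjusted p = 1.51e-16), Spaca6 by 3.99, Spesp1 by 3.54 and Zpbp2 by 3.50. From P to D the same 4 of 5 rose, where 57.2% of all genes did, Spaca6 by 2.14, Acr by 2.13, Spesp1 by 1.64 and Zpbp2 by 1.25. The large share of genes that rose depended on the scale: with equal totals the median of all genes from LZ to P was −0.14, and the split of calls was 3132 higher and 3773 lower in place of 6274 and 534. From P to D the split was then 1709 and 2512 in place of 4767 and 763, and from SPG/PL to LZ 2780 and 3664 in place of 2021 and 1545.

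Spaca1 did not follow. It was 2.13, 3.83, 0.854 and 0.706 in the WT LZ libraries, 3.75, 3.05, 2.59 and 1.97 in P and 5.01, 6.03, 2.18 and 1.76 in D. The groups overlapped at each step, and neither step passed (0.53, SE 0.27, limma adjusted p = 0.0671 from LZ to P, and 0.21, adjusted p = 0.491 from P to D). From LZ to P the library numbers were taken to pair the samples, which the labels do not state. With the number as a block Spaca1 passed (limma adjusted p = 0.0407). It also passed without LZ library 1B (0.82, adjusted p = 0.00349) or P library 2B (0.64, adjusted p = 0.0404), and with equal totals its direction turned to −0.62 (adjusted p = 0.0393).

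Between Piwil1-/- and WT cells, Zpbp2, Acr and Spesp1 overlapped in every fraction. In D, Zpbp2 was 568, 780, 774 and 846 in WT and 804, 671, 839 and 784 in Piwil1-/- cells (log2 difference 0.07, limma adjusted p = 0.972). Acr was 173, 232, 241 and 273 in WT and 223, 172, 230.3 and 208 in Piwil1-/- D cells, and Spesp1 was 131, 195, 206 and 214 against 197, 149, 204 and 183. Neither passed, and each Piwil1-/- value lay within 1 unit of the WT range or inside it. In P, Acr was 44.8, 82.4, 34.8 and 52.9 in WT against 41.4, 28.2, 50.9 and 32.4 in Piwil1-/- cells (−0.45, limma adjusted p = 0.524). So the 3 acrosomal genes that testes kept in part had D levels that overlapped those of WT once D cells were sorted.

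Spaca6 differed. In P it was 21.02, 33.7, 18.5 and 25.2 in WT and 15.4, 10.8, 16.9 and 12.98 in Piwil1-/- cells, so every Piwil1-/- library lay below every WT library. It fell by 0.75 on the log2 scale (SE 0.20, limma adjusted p = 0.0377, exact two-sided permutation p = 0.0286, the smallest that 4 against 4 allows), and was the only 1 of 4 members tested to pass, where 0.304% of all genes fell and 2.81% passed in either direction. The means were 24.6 ± 6.67 and 14.03 ± 2.68 (SD, n = 4 each). The limma call was lost without Piwil1-/- library 1A (adjusted p = 0.0669), 1B (0.153) or 2B (0.0873), and without WT library 1B (0.231) or 2B (0.0939). It was also lost with no filter (0.0716), with pseudocount 0.1 (0.624) and with libraries A and B of a number averaged (0.232). Over all genes the split in P was 198 higher and 24 lower, and 182 and 50 with equal totals.

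In D, Spaca6 was 74.1, 105, 130 and 142 in WT and 85.8, 55.3, 80.6 and 71.8 in Piwil1-/- cells (−0.59, SE 0.20, limma adjusted p = 0.0648, exact two-sided permutation p = 0.0857). Only WT library 1A overlapped the Piwil1-/- range, and without it the difference passed (−0.78, adjusted p = 0.0106). In D 0 of 4 members passed, where 10.3% of all genes did in either direction and 1.89% fell. Over all genes the split was 720 higher and 162 lower, and 506 and 213 with equal totals. A difference between genotypes in the step from P to D was not called for any of the 4 members tested (log2 differences from 0.12 to 0.32, limma adjusted p = 1 each; 1.14% of all genes passed).

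**Figure D4:**
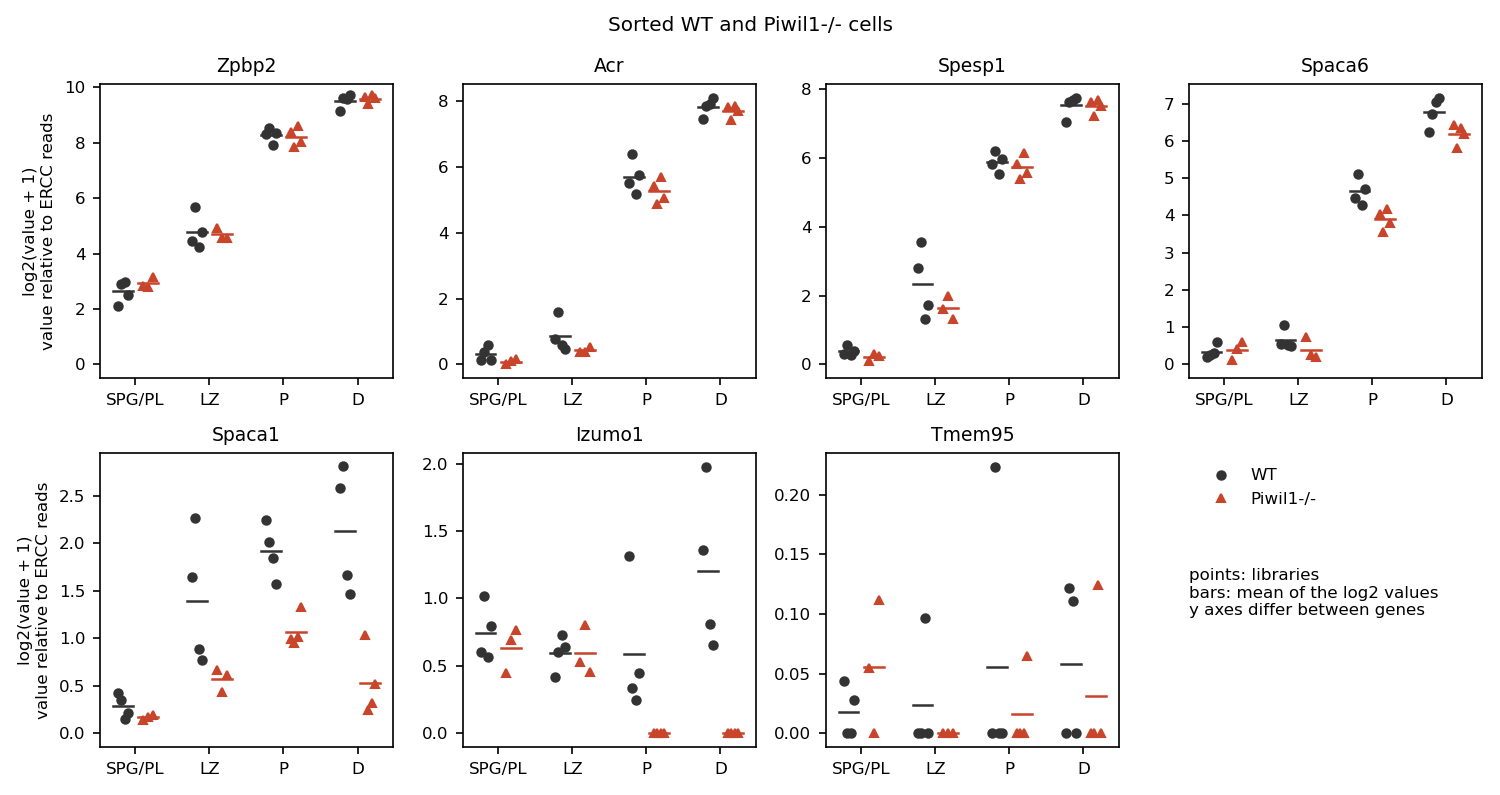
Normalised level of the 7 genes in sorted WT and Piwil1-/- cells of the SPG/PL, LZ, P and D fractions, as log2(value + 1), with a y axis of its own for each gene; points are libraries (3 or 4 a group) and bars mark the mean of the log2 values. Spaca6 is lower in Piwil1-/- P cells, Izumo1 is 0 in Piwil1-/- P and D cells, and Zpbp2, Acr and Spesp1 overlap between genotypes.

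Of the genes nearly absent from Piwil1-/- testes, Izumo1 and Tmem95 were near their detection floor in sorted cells, and Spaca1 was so in Piwil1-/- D cells. Izumo1 was 1.49, 0.265, 0.187 and 0.367 in WT P cells (11, 2, 2 and 3 fragments) and 1.57, 2.93, 0.757 and 0.575 in WT D cells (9, 14, 4 and 3 fragments). It was 0 in all 8 Piwil1-/- P and D libraries. With a floor of 3 fragments over the group, Izumo1 was at least 5.99-fold higher in WT P and at least 9.80-fold higher in WT D cells. The limits rested on single WT libraries: without 1A the limit in P was 2.84-fold, without 1B that in D was 6.50-fold, and without both they were 2.88-fold and 4.48-fold. In the earlier fractions Izumo1 did not separate: in SPG/PL it was 0.480 to 1.02 in WT and 0.367 to 0.701 in Piwil1-/- cells, and in LZ 0.337 to 0.659 and 0.370 to 0.746.

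Spaca1 was 0.990, 0.928, 1.02 and 1.51 in Piwil1-/- P cells, or 39.1% of the WT mean. In D it was 1.06, 0.184, 0.246 and 0.437 (1 to 4 fragments each), or 12.8% of the WT mean. For Izumo1 and Spaca1 the groups did not overlap in P or in D, with an exact two-sided permutation p of 0.0286 each, the smallest this design allows. With Spaca6, 3 of the 7 members were lower without overlap in P, where 1.46% of all genes were, and 2 of 7 in D, where 3.34% were. Unlike the limma shares, these are over the 22518 and 21164 genes above 0 in any library compared, without the filter. A gene at 0 in any WT library could not be lower in this way, which keeps these shares low. Of 28 such permutation tests on the members 5 reached 0.0286. Tmem95 had 0 to 4 fragments in each sorted library.

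Izumo1 and Spaca1 were too low for the filter of the limma fit. Without that filter both passed in D (Izumo1 −1.20, limma adjusted p = 0.000299, and Spaca1 −1.60, adjusted p = 0.000252) and neither in P (−0.59, adjusted p = 0.222, and −0.85, adjusted p = 0.163). Spermatid transcripts moved with them. The 8 spermatid markers summed to 68.4, 53.2, 6.36 and 9.53 in WT P and 54.98, 70.6, 13.5 and 12.3 in WT D libraries, against 2.59 to 4.57 in Piwil1-/- P and 6.59 to 11.2 in Piwil1-/- D libraries. Tnp1 was 0 in every Piwil1-/- sorted library, and in WT it was 5.94 to 18.1 in the libraries numbered 1 and 0 to 4.34 in those numbered 2. Their part in the Izumo1 and Spaca1 differences was not tested.

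Without the WT libraries numbered 1, an alternative chosen after the data were seen, 2 WT libraries remained against 4 and the smallest exact two-sided permutation p was 0.0667. Izumo1 and Spaca1 then still did not overlap in P or in D (p = 0.0667 each), with Spaca1 in Piwil1-/- cells at 48.7% of WT in P and 24.4% in D. Spaca6 was 64.2% of WT in P (exact p = 0.133; limma −0.61, adjusted p = 0.141) and 53.9% in D (exact p = 0.0667; limma −0.90, adjusted p = 0.00301). Acr and Spesp1 in D then no longer overlapped, at 81.2% (exact p = 0.133) and 87.3% of WT (exact p = 0.200). The share of all genes without overlap was not computed for 2 against 4 libraries, so the lack of overlap is a description. Sertoli markers also differed in P, with summed levels of 17.3 to 57.9 in Piwil1-/- against 2.82 to 19.96 in WT cells and 2 of 2 tested higher where 2.51% of all genes were, and their part in the Spaca6 difference was not tested.

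In SPG/PL and LZ no member passed between genotypes. Zpbp2, the only member tested in SPG/PL, was 3.34, 6.55, 6.91 and 4.72 in WT and 6.04, 5.89 and 7.97 in Piwil1-/- cells. By limma 0.0166% of all genes passed there (1 gene, with 308 at an unadjusted p under 0.05), and 0.0172% in LZ (1 gene, with 687). In LZ, Spesp1 was 5.94, 10.7, 1.47 and 2.30 in WT and 2.06, 2.96 and 1.504 in Piwil1-/- cells (−0.70, adjusted p = 0.396), and passed without WT library 2A (−1.05, adjusted p = 0.0168). Spaca1, not tested by limma there, was 0.584, 0.354 and 0.532 in Piwil1-/- LZ cells, below all 4 WT libraries (exact two-sided permutation p = 0.114). It was the only member without overlap in LZ. Of the 27374 genes above 0 in any library compared, 1.61% were lower in this way. Of the other lists, 0 of 9 other acrosome, 0 of 2 other fusion and 0 of 4 ADAM and chaperone genes tested passed in P. There 2.81% of all genes passed. In D 0 of 9, 0 of 2 and 0 of 3 passed, where 10.3% of all genes did. List genes below the filter were not tested. Among them Spaca3, Spaca7, Actl9 and Dcst1 had WT D means of 1.57, 1.85, 1.97 and 0.878 and were 0 in Piwil1-/- D cells. Izumo2 was 0.942 in WT against 0.786 in Piwil1-/- D cells.

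Reads of neighbouring genes could enter some of these values, since the counting is not stated to use strand and multi-mapped reads were counted. In the golden hamster annotation the Spesp1 span of 14736 bases contains a 1387-base long non-coding RNA, LOC121137573, at 2.47 FPKM in pachytene and 4.29 in round sperm, far below Spesp1 itself. Izumo1 lies 129 bases from Rasip1 (4.73 FPKM in round sperm), Tmem95 82 bases from Kctd11 and Spaca6 198 bases from LOC121135350. The other 3 genes, Acr, Spaca1 and Zpbp2, had no neighbour this close.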

How the data were processed

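The authors added ERCC RNA to Smart-seq2 type libraries, removed adapters by Trim Galore 0.5.0, aligned the reads with STAR 2.9 to the golden hamster assembly BCM_Maur_2.0 and counted fragments per gene with featureCounts 1.6.4, multi-mapped reads included. The stage series was deposited by the authors as FPKM. The testis and sorted tables were deposited as a ratio, fragments per kilobase relative to ERCC reads, whose scale factor is not given in the sources used here. Sorted cells came from dissociated adult testes stained with Hoechst dye, and dead cells were marked with propidium iodide. In 2 columns of the sorted table the sample was not given by the labels, and they were not used. Columns and gene IDs were matched by label and by the RefSeq annotation of BCM_Maur_2.0, in which all 36133 IDs had an entry.

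Depth was read from the step between low values, which is the worth of 1 fragment. Whole fragments were recovered within 0.05 for 84.6% (sorted), 82.7% (testis) and 91.5% (stage series) of genes, too few for a count test, and the worth of 1 fragment differed up to 6.35-fold between sorted libraries, 4.22-fold between testis and 4.18-fold between stage libraries. Fragment numbers cover counting error only.

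Each table was fitted with limma 3.58.1 (R 4.3.3) on log2(value + 1) with all its groups, so differences of low values are understated. A gene was tested where it was above 2 in at least 40% of the libraries compared. P-values were adjusted by Benjamini and Hochberg over the genes tested and called at 0.05. Single members in sorted cells were also tested by an exact two-sided permutation over libraries, and 2 against 2 libraries cannot go below 0.333. Spearman's rho was computed with scipy 1.17.1. The fit was tested on simulated data. All members were named. From each list counts are given and, in the comparison with most members called in each table, genes with the lowest adjusted p. Other list genes named were chosen after their values were seen. The members and lists were chosen with earlier results of these data known. Alternatives were another pseudocount (0.1), no filter or a filter of 5, a 4-fold limit at 0.01, equal totals, median ratios, the groups compared alone, a replicate block, libraries A and B of a number averaged and each library left out. Added after seeing the data were the sorted comparisons without the WT libraries numbered 1 and a fit of adult testes alone. Same-numbered libraries were checked for pairing by the correlation of their deviations from the group means. Among comparisons with 3 or more numbers it was above 0.1 for every number only in P against LZ of WT (0.121 to 0.184). There the numbers were taken to pair the samples, which the labels do not state.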

Additional observations from a re-analysis of the deposited data

Results flagged for a closer look

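Of 40 groups of 4 libraries tested for 1 library far from the others (Dixon's critical value 0.829), 7 were singled out. Chance gives about 1 in 20 groups for continuous values only. A group with 3 libraries at 0 and 1 above 0 is always singled out, so the 2 numbers cannot be compared. Izumo1 in WT P library 1A was 1.49, with the next at 0.367. Spaca1 in Piwil1-/- P library 2B was 1.51, with the next at 1.02. Spaca6 in WT LZ library 1B was 1.07, with the next at 0.464. Tmem95 was 0.0900 in Piwil1-/- D library 2A, 0.0460 in Piwil1-/- P library 2B, 0.0694 in WT LZ library 2A and 0.168 in WT P library 1B, where the other 3 libraries of each group were at 0, and these values stood for 1, 1, 4 and 3 fragments.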

How the results depend on the processing

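Across the comparisons, 374 of 410 counts of members called stayed within 1.5 times of the reported count. With the limit of 4-fold and adjusted p under 0.01, the count fell to 2 for Piwil1-/- against WT adult testis, for D against P and for pachytene against zygotene, and to 0 for Piwil1-/- against WT sorted P, pre-leptotene against spermatogonia, leptotene against pre-leptotene and zygotene against leptotene. For Piwil1-/- against WT sorted P the count was also 0 with pseudocount 0.1, with no filter, with libraries A and B averaged and without the WT libraries numbered 1. For sorted D it was 2 with no filter, 1 with median ratios and 1 without the WT libraries numbered 1. For LZ against SPG/PL it was 3 with no filter, 3 with equal totals and 2 with median ratios. Fitted on only the groups compared it was 0 for pre-leptotene against spermatogonia and for leptotene against pre-leptotene, and the latter was 0 with median ratios too. Spaca1 from LZ to P turned to −0.62 with equal totals. The cause was not tested.

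With a replicate block the count was 0 in place of 1 for Piwil1-/- against WT sorted P (Spaca6, limma adjusted p = 0.0522) and 5 in place of 4 for P against LZ, and the block changed no other count. Outside P against LZ of WT the libraries are not taken as paired. With 2 numbers a group the correlation was also above 0.1 for pre-leptotene against spermatogonia (0.285), leptotene against pre-leptotene (0.205) and Piwil2-/- against WT at 3 d.p.p. (0.133), but 2 pairs give 1 value and are too few to call. Leaving out each library gave 2 to 5 members for Piwil1-/- against WT testis, 0 to 1 for Piwil3-/- against WT testis, 0 to 1 for sorted LZ, P and D between genotypes, 4 to 5 for P against LZ, 0 to 1 for pre-leptotene against spermatogonia and for leptotene against pre-leptotene, 3 for pachytene against zygotene and 6 to 7 for mature against round sperm. Depth limits Tmem95 in sorted cells and Spaca1 in Piwil1-/- D cells to a few fragments a library. It limits Izumo1 to at most 14 fragments in a WT P or D library.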

Other observations

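Over the 14 stage libraries, each member was compared with the 11669 genes above 2 in at least 40% of them, by Pearson's r of log2(FPKM + 1) over libraries, as a description. The gene most like Acr was Cdrt1 (r = 0.996), and for Spaca1 it was CUNH10orf82 (0.992), followed by Prr27 (0.991) and by Aqp7 (0.990), a water and glycerol channel. Slc9b1 (0.990) and Pcsk4 (0.982), a proprotein convertase of the sperm surface, were nearest to Spesp1, and CUNH15orf65 (0.990) and Pih1d2 (0.987) to Zpbp2. Spaca6 was nearest to Psmf1 (0.981), Tmem95 to Cast (0.971) and Izumo1 to Gpd2 (0.956). Among the members themselves r ran from 0.371 for Zpbp2 with Tmem95 to 0.943 for Acr with Spaca6.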
